A study of Mus musculus with 4 samples.

Results

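The 10 genes described here mark fibro-adipogenic progenitors (FAPs), the PDGFRα-positive mesenchymal cells of the muscle interstitium, and they were taken by symbol from the 32285 features of the count tables, where each symbol occurred once. Of the 10, 5 are known as genes of the quiescent, adventitial state (Pi16, Dpp4, Cd34, Clec3b and Cd55), 2 as genes of the activated state (Adam12 and Osr1), and 3 mark these progenitors in both states (Pdgfra, Prrx1 and Ly6a). The UMIs, that is the captured mRNA molecules counted by their molecular identifiers, were read in 4 sections, cut from the tibial muscle of Nse-Bmp4 mice, by spot-based spatial transcriptomics on fresh frozen tissue. All animals carried Bmp4 under the promoter of neuron-specific enolase on a C57BL/6 background and were 6 to 8 weeks old. The day 0 section came from uninjured muscle, and the sections of days 1, 3 and 7 came from muscle taken that many days after cardiotoxin injury (dpi). Day 0 is thus not wild type, since the transgene is present in every group.

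There was 1 section per day, and the labels state that 3 tibial muscles were mixed per group, without saying how these muscles lie in a section. Day and section therefore cannot be told apart, no test between days was possible, and all intervals below are 95% intervals that cover counting error only. A spot holds several cells and often pieces of myofibre, so that fewer progenitors and less RNA per progenitor cannot be told apart. The sections held 2107 to 3032 spots and between 16777832 (day 1) and 56113066 UMIs (day 3), with a median of 21029 UMIs per spot on day 0, 6322 on day 1, 16087 on day 3 and 12119.5 on day 7. Genes of adult myofibres took 24.98% of UMIs on day 0, 13.5% on day 1, 8.29% on day 3 and 14.7% on day 7, and 8 monocyte/macrophage markers summed to 387 UMIs per 1000000 UMIs of the section (counts per 1000000, CPM) on day 0, 1407 on day 1, 7416 on day 3 and 1933 on day 7. Defining markers of the labelled tissue, such as Ckm and Acta1 among the myofibre genes, were present in every section.

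FAPs support satellite cells during muscle repair, and when their clearance or fate goes astray they are a known source of fat, of fibrous tissue and, under BMP signalling, of heterotopic cartilage and bone. In resting tissue a subset that carries Pi16 and Dpp4 lies in the adventitia of vessels and in fascia and is regarded as a reservoir of other fibroblasts. Adam12, a membrane metalloprotease, marks a perivascular progenitor that appears after injury, and Osr1, a zinc-finger factor of embryonic connective tissue, is known to be taken up again by FAPs in regenerating muscle.

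RefSeq start windows (build GRCm38.p6) were at hand for 6 of the 10 genes. The outer 150 of the 250 bases before the start used for each window are shown for Pi16, Dpp4 and Cd34. These are the 3 adventitial genes with a window that lies outside the annotated span of the gene. All 5 adventitial genes were lower by at least 2-fold on day 1, so the fall did not set these 3 apart. The windows lie at chr17:29318632-29318781 on the plus strand (Pi16), chr2:62412332-62412481 on the minus strand (Dpp4) and chr1:194938571-194938720 on the plus strand (Cd34), and capitals mark the single motif match. The start used is the annotated gene start for Cd34. For Pi16 and Dpp4 it lies inside the annotated span (chr17:29318796-29328903 and chr2:62330073-62412315), so the bases counted are not distances to the edge of the gene.
Pi16: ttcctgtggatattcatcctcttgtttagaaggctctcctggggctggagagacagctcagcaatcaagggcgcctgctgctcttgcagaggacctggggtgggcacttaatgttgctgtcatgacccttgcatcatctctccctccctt
Dpp4: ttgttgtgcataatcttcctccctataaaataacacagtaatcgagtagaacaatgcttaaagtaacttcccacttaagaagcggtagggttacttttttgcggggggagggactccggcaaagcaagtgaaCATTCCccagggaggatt
Cd34: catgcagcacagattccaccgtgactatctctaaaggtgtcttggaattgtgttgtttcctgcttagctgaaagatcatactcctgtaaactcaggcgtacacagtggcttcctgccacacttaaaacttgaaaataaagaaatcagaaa
The motifs searched on both strands were AP-1 (TGANTCA), TEAD (CATTCC), the GC box (GGGCGG) and the CCAAT box (CCAAT). The match in Dpp4, 118 bases before the start used for its window, is to TEAD letters, which occurred in 8.10% of all 32851 windows of this length. The other 3 sets of letters, held by 3.997% (AP-1), 16.7% (GC box) and 19.98% (CCAAT box) of windows, were not in the 3 shown. A match of letters is a description and no binding site. Of the genes without a window, Clec3b is annotated at chr9:123150946-123157432, Adam12 at chr7:133883199-134225097 and Osr1 at chr12:9574442-9581500 in the same build.

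Quiescent genes fell on day 1 and returned at different rates. Clec3b, which encodes tetranectin, a plasminogen-binding secreted protein, stood at 110 CPM on day 0 (95% Poisson interval 107 to 113, 4816 UMIs), 7.93 on day 1 (6.64 to 9.39, 133 UMIs), 29.7 on day 3 and 108 on day 7. It was 13.8-fold lower on day 1 than on day 0, still 3.70-fold lower on day 3, and on day 7 the log2 ratio to day 0 was -0.03 (interval -0.09 to 0.03), or -0.63 with TMM factors and -0.66 with DESeq2 size factors. Among the 15091 genes with at least 10 UMIs over the day 0 and day 1 sections, 22 had a lower ratio than Clec3b on day 1.

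Pi16, a secreted peptidase inhibitor that marks adventitial fibroblasts, measured 73.2 CPM on day 0 (3212 UMIs), 13.1 on day 1 (219 UMIs), 65.3 on day 3 and 169 on day 7 (7090 UMIs). The fall on day 1 was 5.61-fold (log2 ratio -2.49, interval -2.69 to -2.29), the day 3 level lay just under that of day 0 (log2 ratio -0.16), and the day 7 level was 2.31-fold above it. By CPM of the section total, Pi16 was therefore back near its starting level at a day when Clec3b was not. That reading depends on the scale, since TMM factors shifted every log2 ratio of day 3 by -0.55. Per Pdgfra the log2 change of Pi16 on day 3 was -1.05 (interval -1.18 to -0.93). A higher ratio than that of Pi16 was seen for 12512 of the 16281 genes compared on day 3.

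Dpp4, the surface dipeptidase CD26 and the sparsest of these genes, gave 5.15 CPM on day 0 (226 UMIs), 1.91 on day 1 (32 UMIs), 4.03 on day 3 (226 UMIs) and 8.99 on day 7 (376 UMIs), with a log2 ratio on day 1 of -1.43 (interval -2.02 to -0.90). Cd34, a sialomucin of progenitors that endothelial cells also carry, gave 127 CPM on day 0, 58.4 on day 1, 75.2 on day 3 and 146 on day 7. Cd55, which restrains complement at the cell surface, gave 49.4 CPM on day 0, 22.2 on day 1, 28.6 on day 3 and 79.1 on day 7. On day 1 both were lower by just over the 2-fold limit, with log2 ratios of -1.12 (Cd34) and -1.16 (Cd55), and on day 3 they remained lower at -0.76 and -0.79. On day 7 the ratio was 0.68 for Cd55 and 0.19 for Cd34, and the Cd34 value turned to -0.41 with TMM factors, to -0.44 with DESeq2 size factors and to -0.069 with a total that leaves out myofibre, mitochondrial and haemoglobin genes.

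Of the activated genes, Adam12 rose beyond 2-fold on each day and Osr1 on none. Adam12 measured 2.78 CPM on day 0 (2.31 to 3.32, 122 UMIs), 10.3 on day 1 (172 UMIs), 30.8 on day 3 (1728 UMIs) and 36.6 on day 7 (1530 UMIs), so that it was 3.69-fold, 11.1-fold and 13.2-fold above day 0. A higher ratio was seen for 664 of the 16281 genes compared on day 3 and for 241 of 16092 on day 7. Osr1 measured 6.27 CPM on day 0 (275 UMIs), 7.09 on day 1 (119 UMIs), 5.72 on day 3 (321 UMIs) and 10.5 on day 7 (439 UMIs). Its log2 ratios to day 0 were 0.18 on day 1 (interval -0.14 to 0.49), which turned to -0.029 with TMM factors, and -0.13 on day 3 (-0.37 to 0.11), and the day 7 ratio of 0.74 lay close to the median of 0.65 over all genes at that day. The pair named for activation thus did not move as one.

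**Figure D1:**
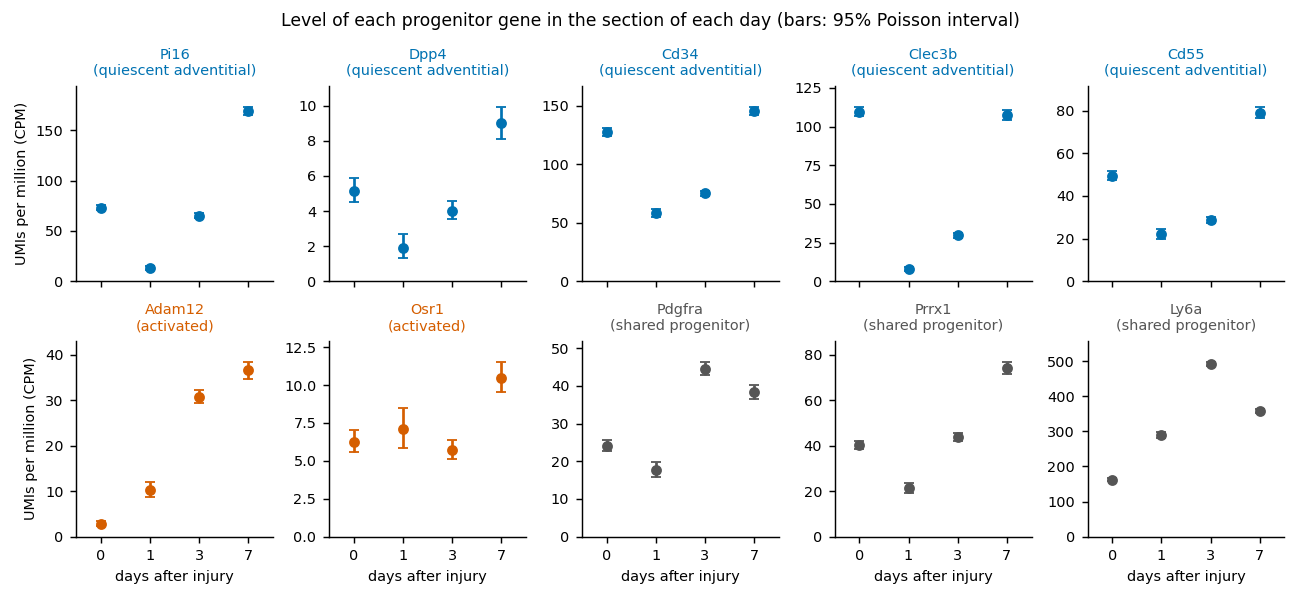
Level of each of the 10 genes in the section of each day, in CPM of the section total, each panel on its own axis from 0 and bars giving the 95% Poisson interval. The 5 quiescent genes (blue) all dip on day 1, with Clec3b at 7.93 CPM against 110 on day 0, while Adam12 climbs from 2.78 to 36.6 and Osr1 stays between 5.72 and 10.5.

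None of the 3 shared markers passed the 2-fold limit downward on day 1, though Prrx1 came near it with a log2 ratio of -0.92. Pdgfra, the receptor by which these cells are usually sorted, gave 24.1 CPM on day 0 (1057 UMIs), 17.8 on day 1 (298 UMIs), 44.6 on day 3 and 38.4 on day 7. Prrx1, a homeobox factor of limb mesenchyme, gave 40.4 CPM on day 0, 21.3 on day 1, 43.8 on day 3 and 74.2 on day 7. The day 3 ratio of Prrx1 was 0.12 on the log2 scale and turned to -0.43 with TMM factors, -0.44 with size factors and -0.26 with the reduced total. Ly6a, the surface antigen SCA-1, gave 163 CPM on day 0, 291 on day 1, 493 on day 3 and 359 on day 7, which was 3.03-fold above day 0 at its highest. Ly6a is also a gene of endothelium and responds to interferon, and its relatives Ly6c1 (185 CPM on day 0 and 213 on day 3) and Ly6c2 (0.43 CPM on day 0 and 61.1 on day 3) are close in sequence. How reads shared by such relatives were counted is not given in the sources used here.

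Counted against a 2-fold limit, 5 members were lower on day 1, namely the 5 quiescent genes, where 11.4% of all genes compared were lower by as much, and 1 was higher (Adam12), where 17.4% of genes were. On day 3, 1 member was lower (Clec3b; 8.26% of genes) and 2 were higher (Adam12 and Ly6a; 33.3% of genes). On day 7 none of the 10 was lower (2.13% of genes) and 3 were higher (Pi16, Adam12 and Ly6a; 32.7% of genes). The shares of higher genes are large because the median log2 ratio of all genes was itself 0.15 on day 1, 0.58 on day 3 and 0.65 on day 7 on this scale, and 3 members higher of 10 on day 7 is a share near that of the background. With TMM factors, size factors or the reduced total, the lower members were 6 on day 1 (Prrx1 added) and 3 on day 3 (Clec3b, Cd34 and Cd55), and Adam12 was the 1 higher on day 7. The 3 comparisons share the day 0 section, so their ratios are not independent.

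**Figure D2:**
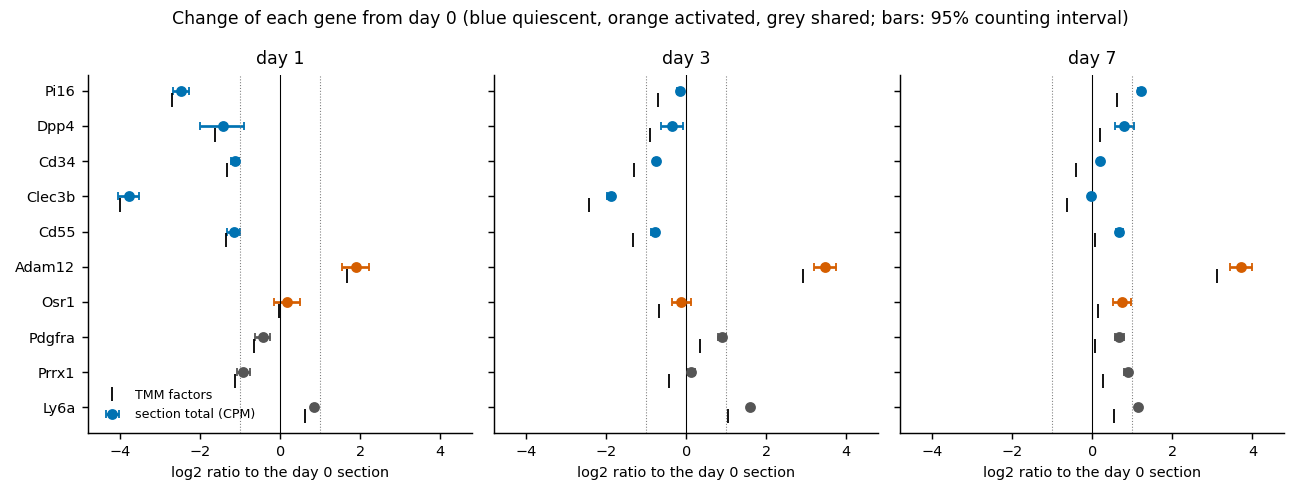
Log2 ratio of each gene to the day 0 section on days 1, 3 and 7, with 95% counting intervals as bars, dotted lines at 2-fold and black ticks for the same ratio with TMM factors. On day 1 the 5 quiescent genes sit at or below -1.12 and Adam12 at 1.88, and by day 7 Adam12 stands at 3.72 while Clec3b is at -0.03.

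Taken within a section, where scaling between sections plays no part, the 5 quiescent genes together gave 40.3 UMIs per UMI of the 2 activated genes on day 0, 5.97 on day 1, 5.55 on day 3 and 10.9 on day 7. Relative to day 0 this is a log2 change of -2.76 on day 1 (interval -2.99 to -2.52), -2.86 on day 3 (-3.02 to -2.70) and -1.89 on day 7 (-2.06 to -1.74). The 2 groups took different parts in the similar values of days 1 and 3. From day 0 to day 1 the quiescent sum went from 365 to 103 CPM and the activated sum from 9.05 to 17.3 CPM, whereas on day 3 the quiescent sum was 203 CPM and the activated sum 36.5 CPM. The median of the 5 quiescent log2 ratios minus the mean of the 2 activated ones gave -2.46 on day 1, -2.43 on day 3 and -1.55 on day 7. With Osr1 as the only activated gene these became -1.61, -0.63 and -0.065, and with Adam12 alone -3.32, -4.23 and -3.04, so the contrast on day 7 rests on Adam12. Adam12 made up 30.7% of the activated UMIs on day 0 and 84.3% on day 3. Whether cells other than these progenitors carried Adam12 was not tested.

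Set against Pdgfra, the quiescent genes did not share one course. Per 100 Pdgfra UMIs there were 456 UMIs of Clec3b on day 0, 44.6 on day 1, 66.5 on day 3 and 281 on day 7, a log2 change of -3.35, -2.78 and -0.70. Pi16 went from 304 to 73.5, 146 and 442 per 100 Pdgfra UMIs, and thus passed its day 0 value on day 7 (log2 change 0.54, interval 0.41 to 0.67). Cd34, Cd55 and Dpp4 were lowest per Pdgfra on day 3, at -1.65, -1.68 and -1.24, after -0.68, -0.72 and -0.99 on day 1, though for Dpp4 the intervals of the 2 days overlap (-1.53 to -0.95 and -1.60 to -0.42). Adam12 rose from 11.5 to 57.7, 69.04 and 95.3 per 100 Pdgfra UMIs, and Osr1 went from 26.0 to 39.9, 12.8 and 27.4.

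The reference matters, because other mesenchymal genes fell on day 1 as well. A list of 12 pan-mesenchymal genes (matrix and stromal genes such as Col1a2, Dcn and Lum) had 9 members lower and 0 higher by 2-fold on day 1, where 11.4% of all genes were lower, with a median log2 ratio of -1.72 beside -1.43 for the 5 quiescent genes. The lowest of the list were Mfap4 (-3.73) and Col3a1 (-3.44), and the highest were Hic1 (0.02) and Pdgfrb (-0.35). The summed list went from 6760 CPM on day 0 to 1401 on day 1, 5113 on day 3 and 15260 on day 7. Per UMI of this list, Clec3b was lower than on day 0 on all 3 days (log2 change -1.52, -1.49 and -1.20), while Pi16 changed little (-0.22, 0.24 and 0.04) and Cd34, Cd55 and Dpp4 were higher on day 1 (1.15, 1.11 and 0.84). Of the quiescent members, Clec3b was therefore the one lower than day 0 on day 1 by CPM, per Pdgfra and per mesenchymal list by more than 2-fold in each.

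Further genes of the same states were counted from lists made for this purpose. Of 14 other adventitial genes, 8 were lower and 1 higher on day 1, 3 lower and 4 higher on day 3, and 0 lower and 5 higher on day 7. Over all genes 11.4%, 8.26% and 2.13% were lower and 17.4%, 33.3% and 32.7% higher on those days, so the counts of higher genes on days 3 and 7 are near the background. On day 1 the lowest were Pcsk6 (log2 ratio -2.73) and Efhd1 (-2.28) and the highest Ugdh (0.46) and Has1, a hyaluronan synthase with 3 UMIs on day 0 and 32 on day 1, which on day 3 reached 15.4 CPM. Of 9 genes of parenchymal progenitors, 4 were lower and 0 higher on day 1 (11.4% and 17.4% of all genes), led by Col15a1 (-2.59) and Smoc2 (-2.33), and Col15a1 was still at -2.58 on day 3. Of 14 other genes of activated or fibrogenic progenitors, 6 were higher and 4 lower on day 1 (17.4% and 11.4% of all genes), and 13 were higher on days 3 and 7 (33.3% and 32.7% of all genes). On day 7 the highest were Cthrc1 (7.48) and Col12a1 (6.63) and the lowest Fap (0.83) and Ptx3 (1.37). Fap, fibroblast activation protein, had a log2 ratio of -2.87 on day 1 and on day 7 stood above its day 0 level, at 44.2 against 24.9 CPM, and Postn, periostin, was at -1.98 on day 1 before it reached 3.87 on day 7. The early rise of Adam12 was shared by Tnc (2.38 on day 1), Timp1 (4.79) and Runx1 (3.47). Timp1 and Runx1 are also genes of other cells of injured muscle, and the part of such cells was not tested.

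Of the relatives of members by name, Prrx2 rose from 2.53 CPM on day 0 to 22.6 on day 3 and 28.9 on day 7, Osr2 measured 2.46, 1.31, 1.84 and 5.31 CPM over the 4 days, and Adam19 measured 12.4, 8.82, 28.4 and 19.7. Cd55b had 0 UMIs in every section, which allows up to 0.0684 CPM on day 0 and 0.179 CPM on day 1.

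The genes were also followed among the spots of each section. To set shares of spots side by side, every spot of at least 2000 UMIs was thinned to 2000 UMIs, which left out 17 spots on day 0, 513 on day 1, 9 on day 3 and 84 on day 7. Clec3b was then seen in 18.5% of spots on day 0, 1.71% on day 1, 7.27% on day 3 and 18.2% on day 7, where the unthinned shares were 72.05%, 4.46%, 35.7% and 58.6%. Pi16 was seen in 11.5%, 3.13%, 11.4% and 25.3% of thinned spots, and Adam12 in 0.57%, 2.31%, 4.68% and 5.48%. In the 10% of spots richest in myofibre RNA the Adam12 share was 0.31%, 0.60%, 1.16% and 0.90%, and the Clec3b share there was 12.1%, 2.07%, 11.9% and 15.5%. On day 7 a single spot held up to 91 UMIs of Pi16, up to 34 of Cd34 and up to 10 of Cd55.

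After injury the balance of the 2 groups differed along the myofibre share of the spots. Spots were sorted into 10 equal bins from the richest to the poorest in myofibre RNA. On day 0 the quiescent-to-activated UMI ratio lay between 28.4 (second bin) and 66.8 (seventh bin) and was 35.3 in the richest and 31.9 in the poorest. On day 1 it was 8.11 in the richest and 4.44 in the poorest bin, a log2 difference of 0.87 whose interval (-0.01 to 1.81) includes 0. With 5 bins the day 1 difference was 1.06, and the intervals of the end bins did not overlap (2.57 to 3.62 and 1.70 to 2.34 on the log2 scale). On day 3 it went from 20.2 in the richest to 2.05 in the poorest bin, a log2 difference of 3.30 (2.80 to 3.85), and on day 7 from 34.6 to 3.29, a difference of 3.40 (2.91 to 3.93). Both sums were higher in the poorest than in the richest bin on day 1 (quiescent 82.2 and 176 CPM, activated 10.1 and 39.6) and on day 7 (quiescent 349 and 450, activated 10.1 and 137), so the ratio fell there because the activated sum differed more. On day 3 the quiescent sum went down, from 255 to 114 CPM, while the activated sum went from 12.6 to 55.6. In the myofibre-richest bin on day 7 the ratio was thus close to that of uninjured muscle. Depth moved along with the bins on day 3, where the median UMI count per spot was 9077.5 in the richest and 26190 in the poorest bin. On day 1 the order was reversed, with 8051.5 in the richest and 3932 in the poorest bin. On day 7 these medians were 10712 and 15969.5. The part of depth in the difference was not tested.

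**Figure D3:**
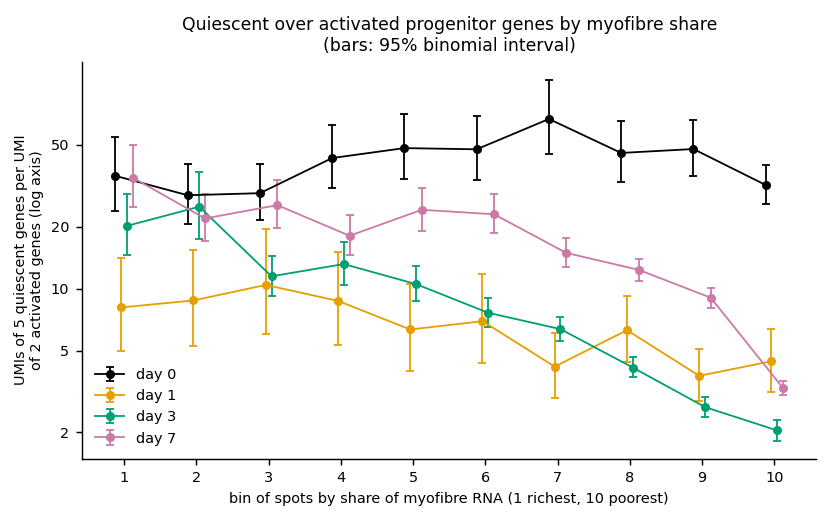
UMIs of the 5 quiescent genes per UMI of the 2 activated genes (log axis) in 10 bins of spots ordered by myofibre share within each section, with 95% binomial intervals. The line of day 0 runs between 28.4 and 66.8, highest in the seventh bin, with ends of 35.3 and 31.9, while those of days 3 and 7 fall to 2.05 and 3.29 in the bin poorest in myofibre RNA.

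The members of a group did not all follow its sum on day 3. From the richest to the poorest bin Pi16 went from 101.1 to 11.9 CPM, Clec3b from 58.7 to 13.8 and Cd55 from 42.0 to 7.43, while Adam12 went from 6.49 to 49.98, Pdgfra from 19.8 to 67.0 and Ly6a from 310 to 633. Cd34 and Dpp4 ran the other way from the remaining quiescent genes, with Cd34 at 51.2 CPM in the richest and 74.4 in the poorest bin and Dpp4 at 2.05 and 6.23. Osr1 was 6.15 in the richest and 5.63 in the poorest. On day 7 Pi16 and Cd34 were highest in the ninth bin, at 261 and 228 CPM, and lower in the poorest, at 158 and 168, whereas Adam12 was highest in the poorest bin at 122 CPM.

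**Figure D4:**
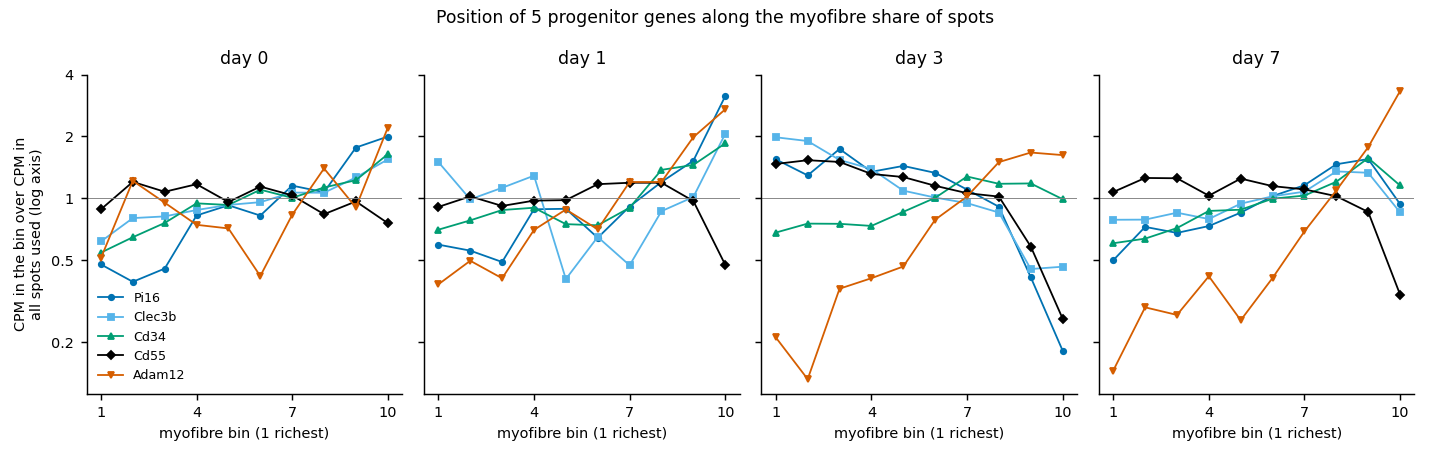
CPM of 5 genes in each myofibre bin divided by their CPM over all spots used, on a log axis, 1 panel per day. Pi16 and Clec3b slope upward on day 0 and downward on day 3, Adam12 rises toward the myofibre-poor bins on days 3 and 7, and Cd55 (black) drops in the poorest bin on every day.

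The position of Cd55 differed from that of Pi16 and Cd34 on days 0, 1 and 7, and from that of Clec3b and Dpp4 on days 0 and 7. On day 3 Cd55 ran with Pi16 and Clec3b. Spots were ranked by their share of UMIs from the 12 pan-mesenchymal genes, and the top 10% were compared with the rest. On day 0 the top spots carried 3.74 times as much Pi16 per UMI (interval 3.45 to 4.04), 5.28 times as much Dpp4, 3.26 times as much Clec3b and 2.14 times as much Cd34, but 1.17 times as much Cd55 (1.01 to 1.34). On day 7 Cd55 in these spots was 28.2 CPM against 85.1 in the rest (ratio 0.33). In the myofibre-richest spots the Cd55 ratio lay between 0.87 on day 0 and 1.51 on day 3, while Cd34 was lower there on each day (0.52 to 0.67). Pi16 and Clec3b were higher there on day 3 as well, with ratios of 1.60 and 2.09, and lower on days 0 and 7. On day 1 Clec3b was 11.3 CPM in the myofibre-richest bin, 3.04 in the fifth and 15.4 in the poorest. Pi16 was 7.32 in the richest and 38.6 in the poorest bin that day. Across the 10 bins of day 0 the log2(CPM + 1) levels of Cd55 and Pi16 had a Pearson r of -0.56, compared with 0.92 for Cd34 and 0.91 for Clec3b with Pi16, as a description of 10 bins of 1 section. On day 1 the r with Pi16 was -0.65 for Cd55, 0.90 for Cd34, 0.34 for Clec3b and 0.12 for Dpp4. The whole section of day 1 held 219 UMIs of Pi16, 133 of Clec3b and 32 of Dpp4, so counting error weighs on these r values. On day 3 the r with Pi16 was 0.98 for Cd55 and 0.86 for Clec3b but -0.48 for Cd34 and -0.63 for Dpp4. On day 7 it was -0.20 for Cd55, 0.92 for Cd34, 0.93 for Clec3b and 0.74 for Dpp4. Which cells of the spots carried Cd55 was not tested.

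The rank by mesenchymal share also changed its content. On day 7 the summed list was 50318 CPM in the top 10% of spots against 11127 in the rest, and Adam12 was 139 CPM there against 24.5 (ratio 5.68, interval 5.12 to 6.30), and Prrx1 139 against 66.6 (2.09). Pi16 was 107 CPM in those spots against 175 in the rest (0.61, interval 0.55 to 0.67), although the top 25% of spots carried more Pi16 than the rest, at 0.91 on the log2 scale. The same turn held for Clec3b, with a ratio of 0.81 in the top 10% and a log2 value of 0.51 in the top 25%. Spots rich in chondrogenic markers on day 7, a list that summed to 1484 CPM in that section against 4.99 on day 0, had 3.36 times as much Adam12 (2.99 to 3.76) and 1.52 times as much Prrx1 as the rest, and less Pi16 (0.51), Clec3b (0.42) and Cd55 (0.36). Osr1 was 0.71 there (0.48 to 1.02), an interval that includes 1. A low quiescent-to-activated UMI ratio was not particular to chondrogenic-rich spots on day 7. It was 2.66 in these, 3.06 in osteogenic-rich spots and 4.65 in tendon-rich spots. In the rest of each ranking it was 13.1, 12.6 and 13.4.

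Pi16 and Clec3b were found beside fat markers after injury. In the 10% of spots richest in 6 adipocyte markers, Pi16 was 1.25 times the rest on day 0 and 6.03 times on day 1 (4.37 to 8.22, 59 UMIs in the rich spots). On day 3 it was 413 CPM against 45.9, a ratio of 9.004 (8.40 to 9.65), and on day 7 the ratio was 2.72. Clec3b had ratios of 1.67, 3.90, 3.75 and 2.12 over the 4 days. Adam12 had 2.38 and 2.40 on days 0 and 1 but 0.62 on day 3 (0.47 to 0.81), and in these fat-rich spots the quiescent-to-activated ratio on day 3 was 20.9 against 4.85 in the rest. Fat-rich spots were shallow on day 3, with a median of 8510.5 UMIs against 17198.5.

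In the spots richest in monocyte/macrophage markers the sign of Pi16 differed between days. It was 1.97 times the rest on day 0, 2.16 times on day 1 (31 UMIs in the rich spots), 0.26 times on day 3 (0.22 to 0.30) and 1.94 times on day 7. Adam12 was higher in macrophage-rich spots on each day, by 1.998, 1.96, 1.77 and 1.79 times. The summed markers were 1498 CPM in the rich spots of day 0 and 17231 in those of day 3, so the same rank stands for different levels on different days. Depth differed too on day 3, with a median of 29189.5 UMIs in the rich spots and 14966.5 in the rest. In 10 bins by these markers, the richest and poorest had medians of 4868.5 and 6245 on day 1. On day 7 they had 18912 and 12157.5.

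**Figure D5:**
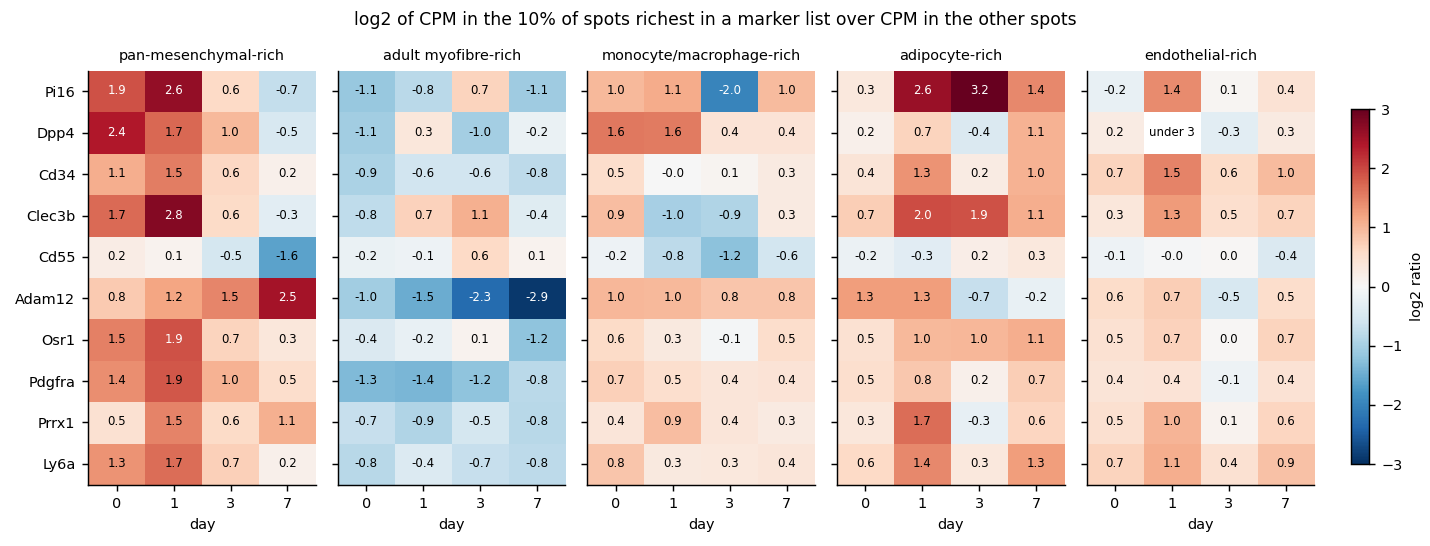
Log2 of the CPM of each gene in the 10% of spots richest in a marker list over its CPM in the other spots, by day, for 5 lists; red is higher in the rich spots, blue lower, and cells marked under 3 had fewer than 3 UMIs on 1 side. Adam12 rises in mesenchymal-rich spots over the days to a ratio of 5.68 on day 7 while Cd55 falls to 0.33, and Pi16 peaks in fat-rich spots on day 3 with a ratio of 9.004.

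Endothelial markers were set beside Cd34 and Ly6a, which endothelial cells also carry. All 9 endothelial markers were detected in every section. They summed to 497 CPM on day 0, 378 on day 1, 347 on day 3 and 510 on day 7. Over the same days Cd34 gave 127, 58.4, 75.2 and 146 CPM, and Ly6a gave 163, 291, 493 and 359. In the 10% of spots richest in the endothelial markers, Cd34 was 1.60, 2.82, 1.49 and 1.94 times the rest over the 4 days. Ly6a was 1.60, 2.13, 1.36 and 1.84 times the rest, while Pdgfra had 1.30, 1.32, 0.90 and 1.35. The part of endothelial RNA in the section levels of Cd34 and Ly6a was not tested. Regenerating-muscle markers summed to 110 CPM on day 0, 87.4 on day 1, 646 on day 3 and 430 on day 7. In the spots richest in them, the quiescent-to-activated ratio was 3.21 on day 3 and 6.79 on day 7. In the rest it was 6.16 and 11.7. On days 0 and 1 it was 39.4 and 5.53 in the rich spots and 40.4 and 5.90 in the rest. In mesenchymal-rich spots it was 3.46 on day 3 and 2.57 on day 7. The part of regenerating muscle in Adam12 was not tested. Markers of T and NK cells, in which Dpp4 is also known, summed to 0.75 CPM on day 0, 1.07 on day 1, 9.07 on day 3 and 5.67 on day 7, with 1 of their 6 genes at 0 on days 0 and 1, and their part in Dpp4 was likewise not tested.

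Members were met in the same thinned spot more often than their separate shares give in a few pairs. For Pi16 and Clec3b the share of spots with both was 1.49 times the product of the separate shares on day 0 (1.16 to 1.89). It was 4.34 times on day 1 on 5 spots (1.41 to 10.1), 2.22 times on day 3 (1.66 to 2.86) and 1.25 times on day 7 (1.07 to 1.44). With spots thinned to 4000 UMIs the day 1 value was 1.74 (0.34 to 4.83), an interval that includes 1, while the intervals of the other days stayed above 1. For any quiescent with any activated gene the value was 1.23, 1.28, 1.02 and 1.00, with intervals that include 1 on each day. Pi16 with Adam12 gave 0.73 on day 3 (0.39 to 1.30) and 1.07 on day 7 (0.78 to 1.44). At a depth of 2000 UMIs a tendency of the 2 states to share or to avoid spots was not detectable.

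Genes whose pattern came closest to a member were sought among 9684 genes with at least 1000 UMIs, by the Pearson r of log2(CPM + 1) over the 40 bins of the 4 sections, as a description of bins that share section and depth. Closest to Pi16 were Podn (0.93), Tead1 (0.93) and Cd209f (0.92). Those nearest to Adam12 were Dap, Ddb1 and Tnc, each at 0.96, and those nearest to Pdgfra were Tgfbr2 (0.90), Fbn1 and Pros1 (0.89 each). Osr1 had no gene above 0.75, and its r with Adam12 was 0.45 over the 40 bins. Within the sections of days 0, 1, 3 and 7 the r of Osr1 with Adam12 was 0.50, 0.78, -0.43 and 0.89.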

How the data were processed

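Spatial transcriptomic libraries were read from 4 sections, 1 per day. The authors deposited raw UMI counts per feature and spot, with no normalization. Per the file headers the tables were written by spaceranger 1.2.0, while the labels name Cell Ranger 5.0.0, and the submitters' processing notes name Space Ranger and mm10. The labels speak of down-sampling as required, while section totals ran from 16777832 to 56113066 UMIs.

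UMIs were summed per section and scaled to counts per 1000000 UMIs (CPM). Levels carry exact Poisson intervals, ratios exact conditional binomial intervals at 95%, and shares of spots Clopper-Pearson intervals; UMIs of spots are not independent samples, so these cover counting error only. A value under 3 UMIs was entered as 3 in ratios. A gene was called at a 2-fold ratio among genes with at least 10 UMIs over both sections. Spots under 2000 UMIs were left out of spot analyses, and thinning used 20 draws. No doublet or cell type call was made on spots. The ratio step was tested on simulated counts over 32285 genes with 200 changed, of which 98.5% (day 1), 100% (day 3) and 98% (day 7) were recovered within 0.5 on the log2 scale. These counts were drawn from the day 0 profile with counting error only. The simulated sections differed in depth and in the changed genes alone, and those were chosen among genes well counted on day 0. The check thus covers the arithmetic, and not shifts in composition or spread between real sections.

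Scaling alternatives were edgeR 4.0.16 TMM factors, DESeq2 1.42.0 size factors, a reduced total (no adult myofibre, haemoglobin or mitochondrial genes), and spots of at least 1000 UMIs. Python 3.11.15, NumPy 2.4.6, SciPy 1.17.1 and pandas 2.3.3 were used. Barcodes shared by sections (1539 to 2311 per pair) are array positions and not shared cells. Members and lists were chosen with earlier results of these data known. All 10 members were named, of other lists the 2 highest and 2 lowest ratios at a day, paralogues by symbol, and for Pdgfra, Pi16 and Adam12 the 3 genes most alike in pattern; Dcn, Lum, Fap, Postn, Tnc, Timp1, Runx1, Pdgfrb and Smoc2 where outside this rule, the day for each list, and the nearest genes of Osr1 were picked after their values were seen. No column of the files was left out. Gene positions and start windows were credited to RefSeq tables of GRCm38.p6; protein sequences were not used here.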

Additional observations from a re-analysis of the deposited data

How the results depend on the processing

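Each day had 1 section, so no call has a replicate behind it, and the section of day 1, with 16777832 UMIs and 513 of 2667 spots under 2000 UMIs, limits every comparison with it; Dpp4 there rests on 32 UMIs. No paired analysis was possible because each day had 1 section and the samples carry no replicate numbers.

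Against the section total, TMM factors shifted every log2 ratio by -0.21 on day 1, -0.55 on day 3 and -0.61 on day 7, DESeq2 size factors by -0.19, -0.56 and -0.63, and the total without mitochondrial, haemoglobin and adult myofibre genes by -0.16, -0.38 and -0.26. In that order of scalings the Cd34 ratio on day 7 turned to -0.41, -0.44 and -0.069, and the Prrx1 ratio on day 3 to -0.43, -0.44 and -0.26. Under each of these 3 scalings, 3 members in place of 1 were lower by 2-fold on day 3, 1 in place of 3 was higher on day 7, and 6 in place of 5 were lower on day 1. Filters of 50 UMIs or 1 UMI and spots of at least 1000 UMIs left the counts of members within 1.5 times.

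Quiescent against activated was -2.46, -2.43 and -1.55 on the 3 days, and a scaling factor cancels in it by construction. It was -3.32, -4.23 and -3.04 with Adam12 alone and -1.61, -0.63 and -0.065 with Osr1 alone. The sums gave -2.86 on day 3 and -1.89 on day 7. On day 1, leaving out Cd34 or Cd55 gave -2.99, leaving out Dpp4 -2.85 and leaving out Pi16 or Clec3b -2.33. Leaving out Cd34 gave -2.24 on day 3, leaving out Clec3b or Cd55 gave -2.23, and leaving out Pi16 or Dpp4 gave -1.79 on day 7. The difference between the ends of the myofibre ranking was 1.06 with 5 bins on day 1, against 0.87 with 10, and 2.37 on day 7, and with macrophage deciles, poorest minus richest, 1.63 on day 1, 2.79 on day 3 and 1.32 on day 7.

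Of the other lists on day 3, TMM and size factors each gave 5 pan-mesenchymal genes lower in place of 1 and the reduced total 3; all 3 gave 2 other adventitial genes higher in place of 4; TMM and size factors gave 5 of them lower in place of 3; all 3 gave 0 parenchymal genes higher in place of 1; TMM and size factors gave 5 of those lower in place of 3; all 3 gave 1 other activated gene and 1 of the other MSC genes of the study (Ly6e, Cxcl12 and Tek) lower in place of 0. On day 7 TMM and size factors gave 2 other adventitial genes higher in place of 5 and the reduced total 3, TMM and size factors 1 lower in place of 0, and all 3 scalings 1 parenchymal gene higher in place of 2 and 1 lower in place of 0.

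With the summed pan-mesenchymal list in place of Pdgfra the log2 change turned for Pi16 on day 3 (0.24), Dpp4 on days 1 and 3 (0.84 and 0.048), Cd34 on day 1 (1.15), Cd55 on day 1 (1.11), Osr1 on day 3 (0.27), Prrx1 on days 1, 3 and 7 (1.35, 0.52 and -0.30) and Ly6a on day 7 (-0.032). Among spots ranked by the mesenchymal list on day 7, the top 25% turned Pi16 to 0.91, Clec3b to 0.51 and the 5 quiescent genes together to 0.57 on the log2 scale, and the reduced total turned Cd34 to -0.23 and Ly6a to -0.23. In chondrogenic-rich spots the top 25% gave 0.12 for Cd34 on day 7 and -0.0041 for Ly6a on day 0, and in macrophage-rich spots the reduced total gave -0.0068 for Ly6a on day 3. Shares of spots depend on depth by construction. The causes were not tested.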
